A study of Mus musculus with 3 samples.

Results

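The 7 CC chemokine genes (Ccl2, Ccl3, Ccl4, Ccl6, Ccl7, Ccl8 and Ccl9) and 2 receptor genes (Ccr1 and Ccr2) were followed through the cells of mouse skin wounds by single-cell RNA-seq. They were taken by symbol, as the monocyte-attracting chemokines and their receptors among 19070 measured genes, and all 9 had a probe. Skin was collected 5 days after wounding from female mice of the C57BL/6J strain, wounded at postnatal day 50, each with a splinted excisional wound of 5 mm through the whole skin of the back. In the AN-GelMA group the wound received 20 µL of GelMA (gelatin methacryloyl, a hydrogel hardened in place by 1 min of UV light) loaded with apoptotic neutrophils, in the GelMA group the same gel without cells, and in the untreated group, titled Sham, the labels name the wound alone. Tissue with margins of 2 mm was fixed for 24 h, dissociated with Liberase and read with 10x Flex probes. Each group was 1 library, so a difference has no replicate check, and treatment, animal and piece of skin cannot be told apart; how many mice a library held is not stated. The name of the AN-GelMA data carries the word heat, whose meaning is not given.

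Monocytes leave the bone marrow and enter injured tissue along gradients of CC chemokines, small secreted proteins held on heparan sulfate and read by G protein-coupled receptors. In mice, Ccl2 and Ccl7 signal through Ccr2, the receptor of inflammatory monocytes, while Ccl3, Ccl6, Ccl7 and Ccl9 are ligands of Ccr1. Mouse Ccl8 acts through Ccr8, and in wounds macrophages, fibroblasts and neutrophils are known sources of these ligands.

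The kept cells numbered 9094, 10687 and 5721 in the AN-GelMA, GelMA and untreated libraries, with median depths of 1134, 1485 and 1125 UMIs (unique molecules) per barcode before filtering. Cells were clustered with all CC chemokine and receptor genes left out, and 15 classes were named from markers, so each class name means cells like that type. Macrophages (monocytes included) numbered 1482, 380 and 628, fibroblasts 2025, 653 and 1068, and neutrophils 105, 95 and 39. Between 94 and 135 cell barcodes were shared by each pair of libraries. The GelMA library stood apart by 2857 hair-forming cells, against 43 in AN-GelMA and 189 in untreated. Levels are the UMIs of a gene in the summed cells of a class, scaled to the same total of UMIs in every class (CPM), with exact 95% Poisson intervals that cover counting error only. Probes differ in number and efficiency, so levels were compared within a gene. A ratio was read where both libraries had at least 50 cells of the class and together at least 20 UMIs of the gene, and counted as higher or lower past 1.5 times. The 3 ratios share libraries in pairs and are not independent.

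Macrophages and fibroblasts held most of the UMIs of Ccl2 and Ccl7, macrophages most of those of Ccl9, and neutrophils a large share of those of Ccl3 and Ccl4. Macrophages gave 82.2% of the Ccl9 UMIs of the AN-GelMA library, 54.5% in GelMA and 73.3% in untreated. They gave 67.8%, 50.6% and 63.4% of the Ccr2 UMIs and 63.7%, 58.8% and 66.1% of the Ccl8 UMIs in AN-GelMA, GelMA and untreated. Fibroblasts gave 49.9%, 39.4% and 53.1% of the Ccl7 UMIs. For Ccl2, macrophages led in AN-GelMA with 47.1% and in untreated with 41.0%, and fibroblasts led in GelMA with 50.5%, where macrophages gave 15.3%. Keratinocytes, 3822, 4480 and 2269 cells, gave 7.42% of the Ccl2 UMIs in AN-GelMA, 26.8% in GelMA and 10.6% in untreated, at a low level per cell. Neutrophils, at most 1.15% of the kept cells of a library, gave 33.0% of the Ccl3 UMIs in AN-GelMA, 76.8% in GelMA and 45.4% in untreated, and 49.2%, 81.0% and 51.0% of the Ccl4 UMIs. Macrophages gave 36.8%, 2.94% and 15.02% of the Ccl3 UMIs, in AN-GelMA more than the neutrophils did.

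**Figure D1:**
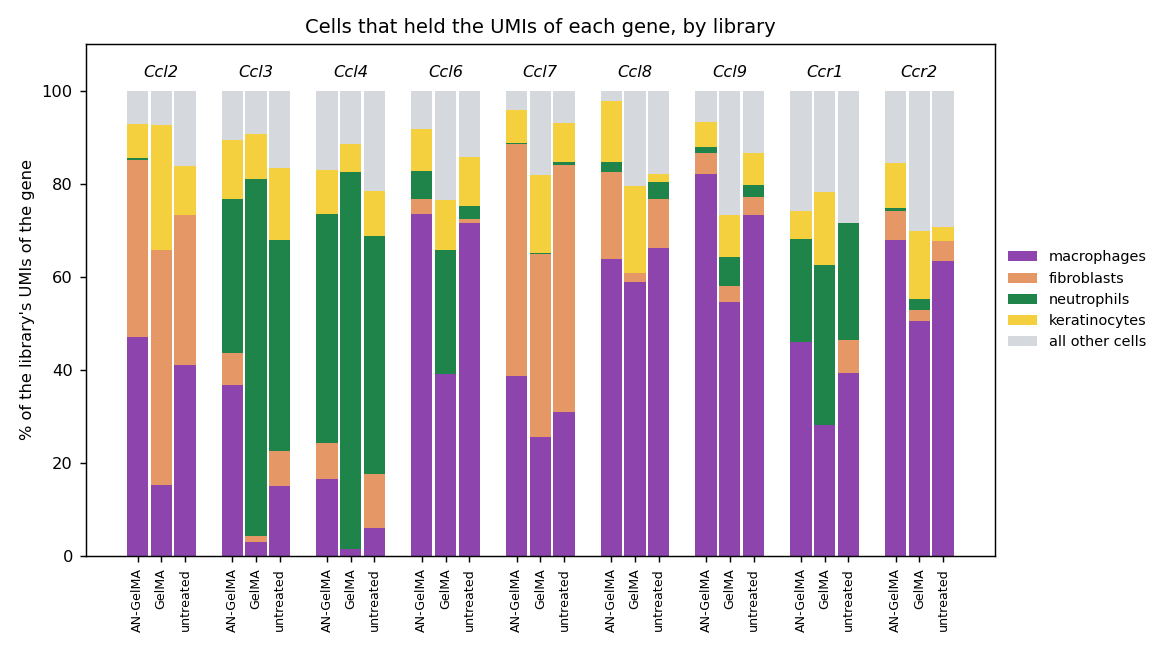
Share of each gene's UMIs (percent, y axis) that came from macrophages, fibroblasts, neutrophils, keratinocytes and all other kept cells, for the 9 genes in the AN-GelMA, GelMA and untreated libraries. Neutrophils held 81.0% of the Ccl4 UMIs in GelMA, and macrophages 82.2% of the Ccl9 UMIs in AN-GelMA.

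Over classes with at least 50 cells in a library, the class with the highest level was the same in each library for Ccl7, Ccl8 and Ccl9. It differed between libraries for the other genes. Neutrophils were left out of this order in untreated, where they numbered 39. Ccl7 was highest in macrophages and fibroblasts in each library, with no other class above 57.6 CPM; macrophages stood above fibroblasts beyond counting error in AN-GelMA, and the 2 intervals overlapped in GelMA and untreated. For Ccl2 macrophages stood above fibroblasts in AN-GelMA and untreated beyond counting error, while in GelMA fibroblasts stood first and the 2 intervals overlapped. Ccl9 was highest in macrophages in each library, with an interval above that of the next class. Ccl6 stood at 179 CPM in neutrophils and 150 CPM in macrophages in AN-GelMA, and at 138 and 73.6 CPM in GelMA. The intervals of the 2 classes overlapped in both libraries. Ccr2 was highest in macrophages in AN-GelMA and GelMA, and in untreated dendritic cells (148 CPM) and macrophages (144.5 CPM) stood side by side.

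In whole libraries most of these genes were lowest in GelMA, the library with the smallest share of macrophages. Ccl7 stood at 104.5 CPM in AN-GelMA, 15.6 in GelMA and 63.7 in untreated, and Ccl9 at 44.3, 5.62 and 34.1. Ccl3 and Ccl4 were the exceptions and lowest in AN-GelMA, at 26.5, 32.5 and 35.0 CPM for Ccl3 and 9.73, 25.9 and 12.2 CPM for Ccl4. Over all kept cells 6 of the 9 genes were higher and 1 lower in AN-GelMA than in GelMA, where 23.9% of all 15071 genes were higher and 16.3% lower. In GelMA against untreated 1 was higher and 6 were lower, with 10.8% and 32.0% of all genes, and in AN-GelMA against untreated 3 were higher and none lower, with 0.882% and 25.4%. Macrophages made up 16.3% of the kept cells in AN-GelMA, 3.56% in GelMA and 11.0% in untreated, and fibroblasts 22.3%, 6.11% and 18.7%. The part of these shares in the whole-library levels was not tested, and the levels that follow are within a class.

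Ccl2, the main ligand of Ccr2, was highest in the macrophages of the AN-GelMA library and lowest in those of GelMA. Macrophages held 298 UMIs of Ccl2 in AN-GelMA (194.6 CPM, 95% interval 173 to 218), 29 in GelMA (85.4 CPM, 57.2 to 123) and 89 in untreated (123.7 CPM, 99.3 to 152). The AN-GelMA interval lay above both others, and those of GelMA and untreated overlapped. The log2 ratio was 1.19 for AN-GelMA over GelMA (0.64 to 1.79), 0.65 for AN-GelMA over untreated (0.31 to 1.01) and -0.53 for GelMA over untreated (-1.19 to 0.08). The value over untreated ran between 0.48 and 1.06 under the processing alternatives. At least 1 Ccl2 UMI was seen in 10.1% of macrophages in AN-GelMA, 5.79% in GelMA and 7.32% in untreated. Among keratinocytes, the most numerous cells, at 6.92, 5.46 and 5.61 CPM of Ccl2, the shares were 0.785%, 0.558% and 0.529%, at median depths of 1413.5, 1641 and 1355 UMIs against 874.5, 743 and 984 in macrophages. With each macrophage thinned to 500 UMIs the shares were 5.81%, 3.68% and 3.51%, with 1, 0 and 2 cells left out as too shallow.

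Ccl7, a second ligand of Ccr2 that also binds Ccr1, showed a smaller difference in macrophages. It stood at 346 CPM in AN-GelMA (530 UMIs), 232.5 CPM in GelMA (79 UMIs) and 229.3 CPM in untreated (165 UMIs). GelMA and untreated differed by less than counting error, with a log2 ratio of 0.02 (-0.39 to 0.42). AN-GelMA over untreated gave 0.59 (0.34 to 0.85) and AN-GelMA over GelMA 0.57 (0.23 to 0.93) and so lay on either side of the 1.5-fold line. Under the processing alternatives the value over untreated ran between 0.03 and 0.99 and stayed past that line in 8 of 15. A Ccl7 UMI was seen in 14.8%, 12.9% and 12.3% of macrophages in AN-GelMA, GelMA and untreated, and in 1.70%, 0.893% and 1.498% of keratinocytes.

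**Figure D2:**
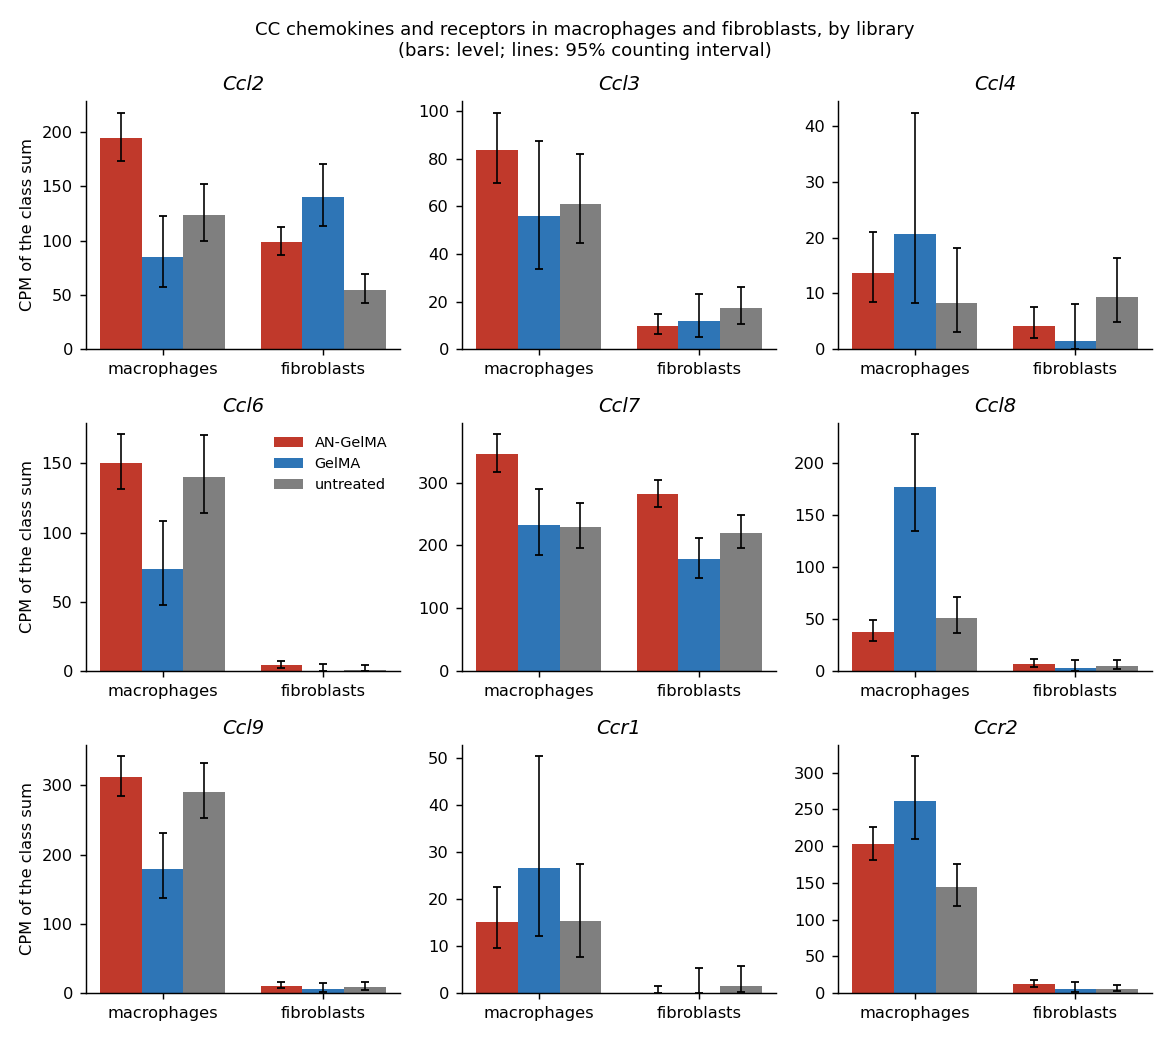
Levels of the 9 genes (CPM of the class sum, y axis) in the macrophages and fibroblasts of the AN-GelMA, GelMA and untreated libraries, with lines for 95% counting intervals. Ccl8 in macrophages was highest in GelMA (176.6 CPM), and Ccl2 in macrophages was highest in AN-GelMA (194.6 CPM).

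Fibroblasts carried both Ccr2 ligands too, and there the GelMA library had the highest Ccl2 and the lowest Ccl7. Ccl2 stood at 99.1 CPM in AN-GelMA (87.0 to 112, 241 UMIs), 139.8 in GelMA (113 to 171, 96 UMIs) and 54.6 in untreated (42.5 to 69.0, 70 UMIs). The 3 intervals did not overlap, and untreated was the lowest. In GelMA 3 cells held 30 of the 96 UMIs, 15 of them in a single cell, against 29 of 241 in the top 3 cells of AN-GelMA and 20 of 70 in those of untreated. The order of GelMA and AN-GelMA therefore rests on few cells, while GelMA over untreated was 1.32 without the top cell of each library. The log2 ratio of Ccl2 was 1.36 for GelMA over untreated (0.90 to 1.82), 0.86 for AN-GelMA over untreated (0.47 to 1.27) and -0.50 for AN-GelMA over GelMA (-0.84 to -0.14). Ccl7 stood at 282.1 CPM in AN-GelMA (686 UMIs), 177.7 in GelMA (122 UMIs) and 220.6 in untreated (283 UMIs). Its log2 ratio was 0.67 for AN-GelMA over GelMA (0.39 to 0.96), 0.35 for AN-GelMA over untreated (0.15 to 0.56) and -0.31 for GelMA over untreated, with an interval from -0.63 to just below 0. The order of the libraries differed between the 2 ligands in this class, whose make-up also differed: the Nos2 and Saa3 cluster was 549 of 2025 fibroblasts in AN-GelMA, 34 of 653 in GelMA and 258 of 1068 in untreated. The part of that make-up was not tested. A Ccl2 UMI was seen in 4.40%, 4.90% and 3.18% of fibroblasts in AN-GelMA, GelMA and untreated, and a Ccl7 UMI in 14.2%, 9.34% and 11.9%. Ccl6, Ccl8 and Ccr1 were scarce in fibroblasts, with 10, 0 and 1 UMIs of Ccl6, 17, 2 and 6 of Ccl8 and 0, 0 and 2 of Ccr1.

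Fibroblasts formed 3 clusters, here named by leading genes, and the level of Ccl2 was highest in the Nos2 and Saa3 cluster in every library. There Ccl2 stood at 183.2 CPM in AN-GelMA (136 UMIs), 769.5 CPM in GelMA (39 UMIs) and 106.2 CPM in untreated (35 UMIs). The GelMA value came from 34 cells, 8 of which held all 39 UMIs, so it was not compared; AN-GelMA over untreated gave a log2 ratio of 0.79 (0.24 to 1.37). In the Pi16 and Tnxb cluster, the largest in each library, Ccl2 stood at 83.2, 91.8 and 54.7 CPM in AN-GelMA, GelMA and untreated. In the Col12a1 and Tnn cluster the levels were 29.97, 85.3 and 14.2 CPM, with GelMA over untreated at 2.59 (1.19 to 4.21). GelMA was above untreated for Ccl2 in each of the clusters compared. For Ccl7 the clusters differed: in the Pi16 and Tnxb cluster it stood at 307.3 CPM in AN-GelMA, 134.2 in GelMA and 226.4 in untreated, a log2 ratio of 1.19 for AN-GelMA over GelMA (0.78 to 1.63), while in the Col12a1 and Tnn cluster it stood at 122.9, 151.6 and 141.8 CPM. In the Nos2 and Saa3 cluster Ccl7 stood at 390.6 CPM in AN-GelMA (290 UMIs), 651.2 in GelMA (33 UMIs from the 34 cells) and 312.4 in untreated. Averaged with equal weight over the 3 clusters, these 34 cells included, Ccl7 gave -0.19 for AN-GelMA over GelMA, against 0.67 over all fibroblasts.

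Cells that held Ccl2 often held Ccl7 as well. Of macrophages with a Ccl2 UMI, 71 of 149 in AN-GelMA (47.7%), 12 of 22 in GelMA (54.5%) and 23 of 46 in untreated (50.0%) also had a Ccl7 UMI. Of macrophages without one, 11.1%, 10.3% and 9.28% had a Ccl7 UMI. The cells with Ccl2 were deeper, at median depths of 990, 892.5 and 1167 UMIs against 868, 735 and 975.5, and the part of depth was not tested. In fibroblasts the shares with Ccl7 were 53.9%, 43.8% and 52.9% of cells with Ccl2 and 12.4%, 7.57% and 10.5% of cells without.

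Ccl8 differed the other way from Ccl2 and was the gene of the 9 with the widest difference between libraries in macrophages. Its sequence upstream of the start, 250 bases before to 50 after (RefSeq, GRCm38.p6, chr11:82114935-82115234, plus strand), is shown for the TATAAA box in capitals, whose first base lies 32 bases before the start. The letters TATAAA, read on both strands, occur in 13.6% of 32544 such windows, so the match is a description and not a cause.
Ccl8: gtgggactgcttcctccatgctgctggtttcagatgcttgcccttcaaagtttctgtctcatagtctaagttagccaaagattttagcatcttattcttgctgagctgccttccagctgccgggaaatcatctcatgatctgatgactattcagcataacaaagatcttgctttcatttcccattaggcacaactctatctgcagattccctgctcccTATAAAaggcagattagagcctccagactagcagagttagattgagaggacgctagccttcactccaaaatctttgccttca

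In macrophages Ccl8 stood at 37.9 CPM in AN-GelMA (58 UMIs), 176.6 CPM in GelMA (60 UMIs) and 51.4 CPM in untreated (37 UMIs). GelMA was the high library, with 1.78 for GelMA over untreated (1.17 to 2.41) and -2.22 for AN-GelMA over GelMA (-2.77 to -1.68); AN-GelMA over untreated gave -0.44 (-1.06 to 0.19). A Ccl8 UMI was seen in 3.17% of macrophages in AN-GelMA, 10.8% in GelMA and 3.66% in untreated, and in 0.314%, 0.379% and 0.0441% of keratinocytes. With cells thinned to 500 UMIs the macrophage shares were 1.76%, 7.11% and 2.24%. Nearly all Ccl8 lay in the Cd163 and Mrc1 cluster, genes of resident macrophages, with 54, 57 and 35 UMIs in AN-GelMA, GelMA and untreated, against 4, 1 and 1 in the Mmp12 and Spp1 cluster and 0, 2 and 1 in the Ccr2 cluster. Within the Cd163 and Mrc1 cluster it stood at 94.7 CPM in AN-GelMA, 299.7 in GelMA and 163.5 in untreated, so the order held. There the log2 ratio was 0.87 for GelMA over untreated (0.24 to 1.52) and -1.66 for AN-GelMA over GelMA (-2.23 to -1.10), both smaller in size than over all macrophages, and -0.79 for AN-GelMA over untreated (-1.43 to -0.13), which was larger. That cluster was 578 of 1482 macrophages in AN-GelMA, 222 of 380 in GelMA and 211 of 628 in untreated. Ccr8, its mouse receptor, named here after its values were seen, stood at 182 CPM (33 UMIs), 118 CPM (13 UMIs) and 101 CPM (12 UMIs) in T, NK or innate lymphoid cells.

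**Figure D3:**
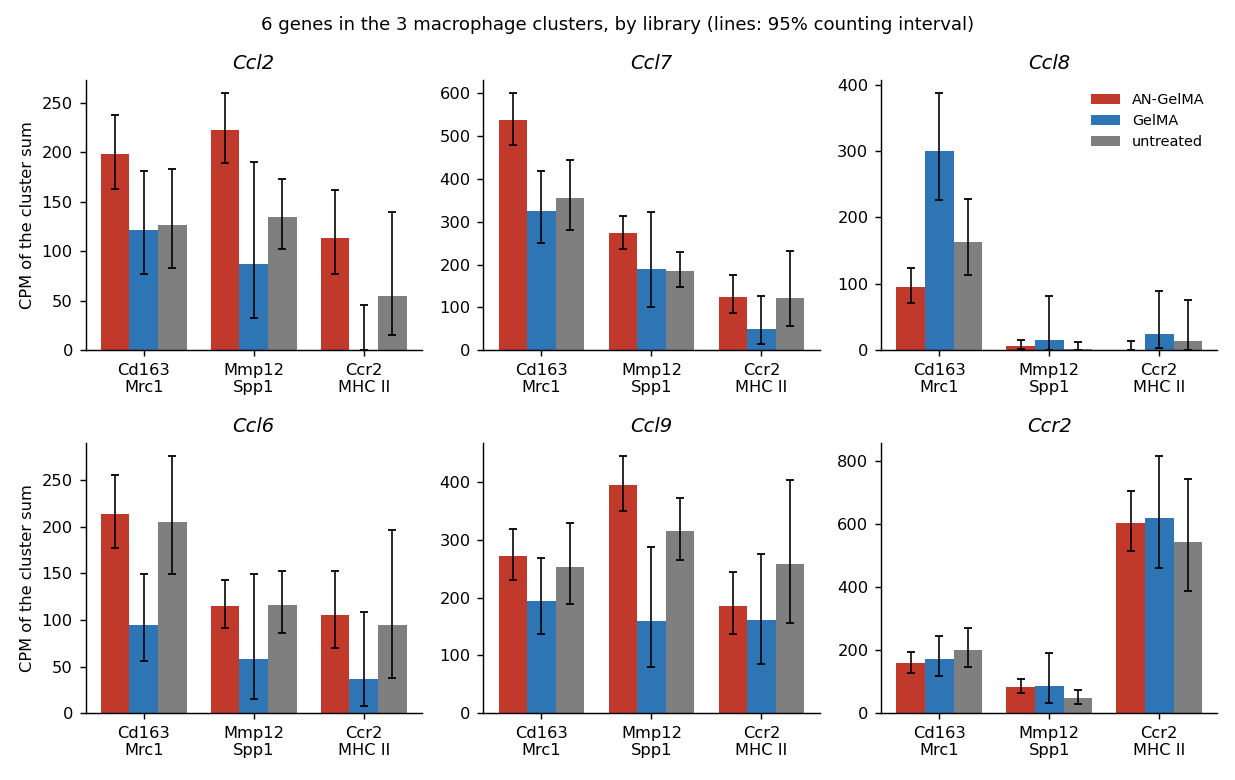
Levels of 6 genes (CPM of the cluster sum, y axis) in the 3 macrophage clusters of the AN-GelMA, GelMA and untreated libraries, with lines for 95% counting intervals. Ccl8 lay in the Cd163 and Mrc1 cluster (94.7, 299.7 and 163.5 CPM), and Ccr2 in its own cluster was near 604.3, 618.3 and 543.9 CPM.

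Ccl2 and Ccl7 were spread over the macrophage clusters. In the Cd163 and Mrc1 cluster Ccl2 stood at 198.1 CPM in AN-GelMA, 121 in GelMA and 126.1 in untreated, and the Mmp12 and Spp1 cluster had 222.5, 87.3 and 134.2 CPM. In the Ccr2 cluster it had 30 UMIs in AN-GelMA, 0 in GelMA and 4 in untreated. Against a floor of 3 UMIs for the GelMA cluster, AN-GelMA was higher there by a log2 ratio of at least 1.61. AN-GelMA had the highest Ccl2 in each of the 3 clusters. Ccl7 was highest in the Cd163 and Mrc1 cluster, at 538.3 CPM in AN-GelMA, 326 in GelMA and 355 in untreated, against 124.6, 49.5 and 122.4 in the Ccr2 cluster.

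Ccl6 and Ccl9, neighbouring rodent genes whose products bind Ccr1, were both low in the macrophages of GelMA. Their upstream windows (RefSeq, GRCm38.p6, minus strand, 250 bases before to 50 after the start) are shown because the genes are neighbours. The starts lie 14451 bases apart: chr11:83593038-83593337 for Ccl6 and chr11:83578587-83578886 for Ccl9. Capitals mark the runs of at least 10 letters in a row that both windows hold, 4 in number, with overlapping runs joined. None of the other 14 pairs among the 6 members with a window held such a run. Ccl2, Ccl4 and Ccl7 had no window, so their pairs could not be read. How often pairs of windows of other genes share such runs was not counted.
Ccl6: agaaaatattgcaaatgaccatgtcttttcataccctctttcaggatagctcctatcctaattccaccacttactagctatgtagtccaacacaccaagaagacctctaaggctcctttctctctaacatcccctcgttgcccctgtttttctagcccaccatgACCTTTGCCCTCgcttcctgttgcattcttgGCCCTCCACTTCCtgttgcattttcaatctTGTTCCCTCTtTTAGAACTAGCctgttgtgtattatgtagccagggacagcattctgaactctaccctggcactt
Ccl9: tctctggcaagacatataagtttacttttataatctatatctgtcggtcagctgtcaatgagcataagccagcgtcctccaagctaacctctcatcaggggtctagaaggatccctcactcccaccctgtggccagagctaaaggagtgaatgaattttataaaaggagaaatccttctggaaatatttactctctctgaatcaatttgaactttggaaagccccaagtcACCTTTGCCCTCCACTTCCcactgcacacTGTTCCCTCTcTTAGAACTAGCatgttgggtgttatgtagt

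The shared runs were 12, 13, 10 and 11 letters long. In Ccl6 they begin 86, 55, 25 and 14 bases before the start, and in Ccl9 the longer ones begin 20 and 14 bases before it and the others past it. The Ccl9 window also held TATAAA and, 53 bases before the start, the AP-1 letters TGANTCA, which occur in 7.79% of windows on either strand. These are matches of letters only. In macrophages Ccl6 stood at 150.2 CPM in AN-GelMA (230 UMIs), 73.6 in GelMA (25 UMIs) and 140.3 in untreated (101 UMIs). Ccl9 stood at 312.7 CPM in AN-GelMA (479 UMIs), 179.5 in GelMA (61 UMIs) and 290.4 in untreated (209 UMIs). GelMA was the low library for both, and AN-GelMA over untreated was 0.10 for Ccl6 (-0.25 to 0.45) and 0.11 for Ccl9 (-0.13 to 0.35), within counting error. For Ccl6 the log2 ratio was 1.03 for AN-GelMA over GelMA (0.43 to 1.69) and -0.93 for GelMA over untreated (-1.63 to -0.29). For Ccl9 it was 0.80 (0.41 to 1.21) and -0.69 (-1.13 to -0.28), values that ran between 0.20 and 1.30 and between -0.98 and -0.30 under the alternatives. A Ccl9 UMI was seen in 20.1%, 12.6% and 18.8% of macrophages and in 0.837%, 0.201% and 0.881% of keratinocytes, and a Ccl6 UMI in 11.9%, 6.05% and 12.1% of macrophages and in 0.680%, 0.134% and 0.573% of keratinocytes.

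By level, GelMA was lowest for both genes in each of the 3 macrophage clusters, on few UMIs. The 3 clusters of GelMA together held 25 UMIs of Ccl6. In the Ccr2 cluster Ccl6 was under the minimum of 20 UMIs for GelMA over untreated, so no ratio was read there. Ccl6 stood at 213.9 CPM in AN-GelMA, 94.7 in GelMA and 205.5 in untreated in the Cd163 and Mrc1 cluster, against 114.8, 58.2 and 115.7 in cells of the Mmp12 and Spp1 cluster. Ccl9 stood at 394.8 CPM in AN-GelMA, 160.0 in GelMA and 314.7 in untreated in the Mmp12 and Spp1 cluster. The Cd163 and Mrc1 cluster had 271.8, 194.6 and 252.3 CPM of Ccl9, and the Ccr2 cluster 185.1, 160.8 and 258.4 CPM. The Mmp12 and Spp1 cluster was the highest of the 3 for Ccl9 in AN-GelMA and untreated. In GelMA, where it held 11 UMIs, it was level with the Ccr2 cluster. Of macrophages with a Ccl6 UMI, 30.5%, 21.7% and 43.4% also had a Ccl9 UMI in AN-GelMA, GelMA and untreated, against 18.7%, 12.0% and 15.4% of those without.

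The marker genes of other cells also differed in these macrophages. Over 10 hair-forming cell markers the sum stood at 21.5 CPM in AN-GelMA with 4 markers at 0, 971 in GelMA with 0 at 0 and 121 in untreated with 2 at 0. Keratinocyte markers (11 genes) summed to 533, 1007 and 431 CPM and fibroblast markers (10 genes) to 543, 1124 and 775 CPM, highest in GelMA. Neutrophil markers (10 genes) summed to 390, 347 and 249 CPM, with 2, 1 and 2 at 0, and the 12 macrophage markers to 6038, 6593 and 4807 CPM with none at 0. In fibroblasts the macrophage markers summed to 228 CPM in AN-GelMA, 355 in GelMA and 285 in untreated. Their part in the results above was not tested.

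Ccl3 and Ccl4, inflammatory chemokines of which Ccl3 binds Ccr1, stood at their highest levels in neutrophils. They are among the leading genes of that cluster, though left out of the clustering, so their place there describes it. In neutrophils Ccl3 stood at 1085.5 CPM in AN-GelMA (115 UMIs), 4028.6 in GelMA (497 UMIs) and 3096.4 in untreated (133 UMIs). Ccl4 stood at 594.6 CPM in AN-GelMA (63 UMIs), 3388.2 in GelMA (418 UMIs) and 1210.6 in untreated (52 UMIs). AN-GelMA was the low library for both. The untreated library had 39 neutrophils, under the minimum of 50, so only AN-GelMA over GelMA was compared, with log2 ratios of -1.89 for Ccl3 (-2.20 to -1.60) and -2.51 for Ccl4 (-2.92 to -2.13). Of the 9 genes 4 could be read there, 0 were higher and 2 lower, with a median of -0.84 against 0.04 over all genes; 21.1% of all genes were lower and 24.2% higher. Ccl6 (0.38) and Ccr1 (0.22) lay within 1.5 times.

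Against GelMA the difference was present in the share of cells with a UMI as well as in the UMIs per such cell. Ccl3 had 115 UMIs in 32 neutrophils in AN-GelMA, 497 in 58 in GelMA and 133 in 22 in untreated. Ccl4 had 63 UMIs in 21 neutrophils, 418 in 39 and 52 in 17, so per such cell AN-GelMA and untreated were close. A Ccl3 UMI was seen in 30.5% of neutrophils in AN-GelMA, 61.1% in GelMA and 56.4% in untreated, at median depths of 705, 864 and 816 UMIs, and in 1.13%, 1.14% and 1.41% of keratinocytes. A Ccl4 UMI was seen in 20.0%, 41.1% and 43.6% of neutrophils and in 0.262%, 0.647% and 0.353% of keratinocytes. In GelMA a single neutrophil held 127 of the 497 Ccl3 UMIs and a single neutrophil 101 of the 418 Ccl4 UMIs; without the top cell of each library the log2 ratios were -1.77 (-2.11 to -1.44) and -2.35 (-2.79 to -1.93). Of neutrophils with Ccl3, 40.6%, 58.6% and 68.2% also had Ccl4 in AN-GelMA, GelMA and untreated, against 11.0%, 13.5% and 11.8% of those without. The 10 neutrophil markers summed to 15857 CPM in AN-GelMA with 0 at 0, 16706 in GelMA with 0 at 0 and 12805 in untreated with 3 at 0. Hair-forming cell markers summed to 75.5, 2521 and 233 CPM and keratinocyte markers to 7362, 5552 and 2654 CPM in the same cells, and their part was not tested. Whether a neutrophil of the AN-GelMA library came from the gel or from the wound cannot be told apart in these data.

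**Figure D4:**
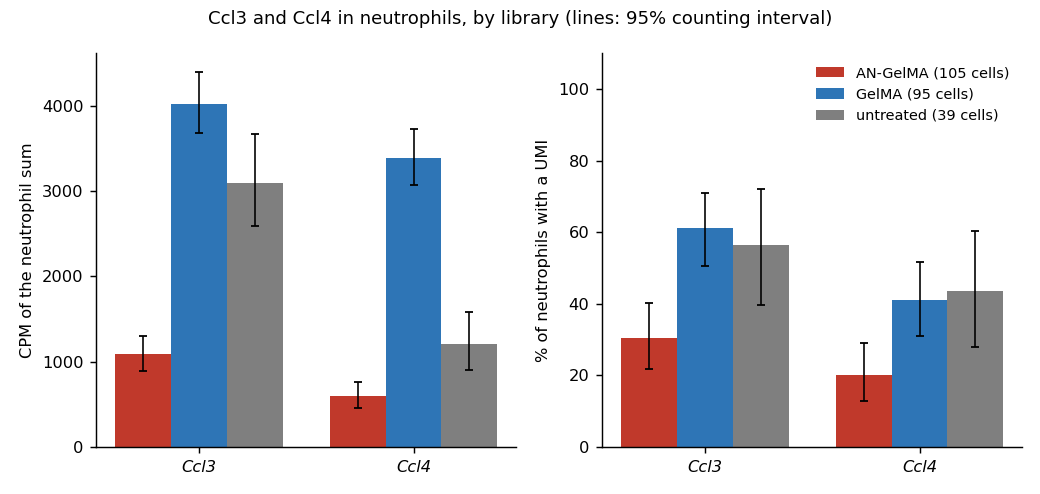
Left, Ccl3 and Ccl4 in neutrophils (CPM of the class sum, y axis); right, the percent of neutrophils with at least 1 UMI, for the AN-GelMA, GelMA and untreated libraries with 95% counting intervals. AN-GelMA was lowest for both genes, at 1085.5 CPM for Ccl3 against 4028.6 in GelMA and 3096.4 in untreated.

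In macrophages Ccl3 was far below its neutrophil level in every library. It stood at 83.6 CPM in AN-GelMA (128 UMIs), 55.9 in GelMA (19 UMIs) and 61.1 in untreated (44 UMIs), with 0.58 for AN-GelMA over GelMA (-0.12 to 1.36) and 0.45 for AN-GelMA over untreated (-0.05 to 0.98). These intervals hold 0. In the Cd163 and Mrc1 cluster, with 42, 3 and 6 UMIs (73.6, 15.8 and 28.0 CPM), AN-GelMA was higher, with 2.22 over GelMA (0.58 to 4.56) and 1.39 over untreated (0.15 to 2.92). In the Mmp12 and Spp1 cluster the levels were 99.1, 116.4 and 83.3 CPM. Ccl4 had 21, 7 and 6 UMIs in all macrophages, and its log2 ratios of -0.59 for AN-GelMA over GelMA (-1.88 to 0.89) and 0.72 for AN-GelMA over untreated (-0.64 to 2.32) had intervals that hold 0. Fibroblasts had 9.87, 11.7 and 17.2 CPM of Ccl3 and 4.11, 1.46 and 9.36 CPM of Ccl4.

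Ccr2, the receptor of Ccl2 and Ccl7, was higher in the macrophages of GelMA than of untreated. It stood at 202.4 CPM in AN-GelMA (310 UMIs), 261.9 in GelMA (89 UMIs) and 144.5 in untreated (104 UMIs). The log2 ratio was 0.86 for GelMA over untreated (0.43 to 1.28), 0.49 for AN-GelMA over untreated (0.16 to 0.82) and -0.37 for AN-GelMA over GelMA (-0.72 to -0.02). A Ccr2 UMI was seen in 14.0%, 14.5% and 10.4% of macrophages in AN-GelMA, GelMA and untreated, and in 1.05%, 0.446% and 0.220% of keratinocytes. In the Mmp12 and Spp1 cluster Ccr2 stood at 84.7 CPM in AN-GelMA, 87.3 in GelMA and 48.6 in untreated, with 0.84 for GelMA over untreated (-0.75 to 2.20). The difference was smaller in the other macrophage clusters. In the Ccr2 cluster, whose MHC class II genes and Ccr2 lead it, Ccr2 stood at 604.3 CPM in AN-GelMA, 618.3 in GelMA and 543.9 in untreated, a log2 ratio of 0.18 for GelMA over untreated. In the Cd163 and Mrc1 cluster the levels were 159.5, 173.5 and 200.9 CPM, where GelMA over untreated was -0.21, the opposite direction. The Ccr2 cluster was 305 of 1482 macrophages in AN-GelMA, 92 of 380 in GelMA and 83 of 628 in untreated, and the part of that share in the class level was not tested.

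Ccr2 was also seen outside macrophages. Dendritic cells had 141.5 CPM in AN-GelMA (16 UMIs), 179.7 in GelMA (6 UMIs) and 148 in untreated (8 UMIs), and T, NK or innate lymphoid cells 115.6 (21 UMIs), 126.8 (14 UMIs) and 50.4 (6 UMIs). Of macrophages with a Ccl8 UMI, 3 of 47 in AN-GelMA, 2 of 41 in GelMA and 1 of 23 in untreated also had Ccr2, against 14.2%, 15.6% and 10.6% of those without. Ccr1, the receptor of Ccl3, Ccl6, Ccl7 and Ccl9, was sparse. Macrophages held 23, 9 and 11 UMIs (15.02, 26.5 and 15.3 CPM) and neutrophils 11, 11 and 7 UMIs. In neutrophils Ccr1 stood at 103.8 CPM in AN-GelMA, above macrophages beyond counting error. It stood at 89.2 CPM in those of GelMA, where the interval overlapped that of macrophages. Its macrophage ratios of -0.82 for AN-GelMA over GelMA (-1.98 to 0.48) and 0.79 for GelMA over untreated (-0.66 to 2.20) had intervals that hold 0.

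Counted over the 9 genes, macrophages of AN-GelMA against GelMA had 3 higher (Ccl2, Ccl6 and Ccl9) and 3 lower (Ccl4, Ccl8 and Ccr1), and over all 8975 genes read there 11.9% were higher and 19.8% lower. The median log2 ratio was 0.57, against -0.10 over all genes. For GelMA against untreated, 8 were read, 3 were higher (Ccl8, Ccr1 and Ccr2) and 2 lower (Ccl6 and Ccl9), with 18.1% and 12.2% over all genes and medians of -0.05 against 0.08. For AN-GelMA against untreated 3 of 9 were higher (Ccl2, Ccl4 and Ccl7) and none lower, with 7.45% and 8.63% over all genes and medians of 0.45 against -0.01. In fibroblasts 3 of 5 were higher in AN-GelMA than in GelMA (Ccl7, Ccl9 and Ccr2) and 0 lower, with 10.2% and 17.8% over all genes and medians of 0.67 against -0.10. Ccl2 was higher in GelMA than in untreated, as 1 of 3 read with 0 lower, with 16.0% and 10.1% over all genes and medians of -0.31 against 0.08. In AN-GelMA against untreated 2 of 7 were higher (Ccl2 and Ccr2) and 2 lower (Ccl3 and Ccl4), with 4.98% and 6.37% over all genes and medians of 0.35 against -0.01. Ccl9 and Ccr2 in fibroblasts rest on few UMIs, 26, 4 and 11 for Ccl9 and 29, 4 and 7 for Ccr2 in AN-GelMA, GelMA and untreated. So do Ccl3 and Ccl4 there, with 24, 8 and 22 UMIs of Ccl3 and 10, 1 and 12 of Ccl4 in the same order. In macrophages the calls of Ccl4 (21, 7 and 6 UMIs) and Ccr1 (23, 9 and 11 UMIs) rest on few UMIs too, with intervals that hold 0. The call of Ccl7 in macrophages, AN-GelMA over untreated, held in 8 of 15 alternatives.

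**Figure D5:**
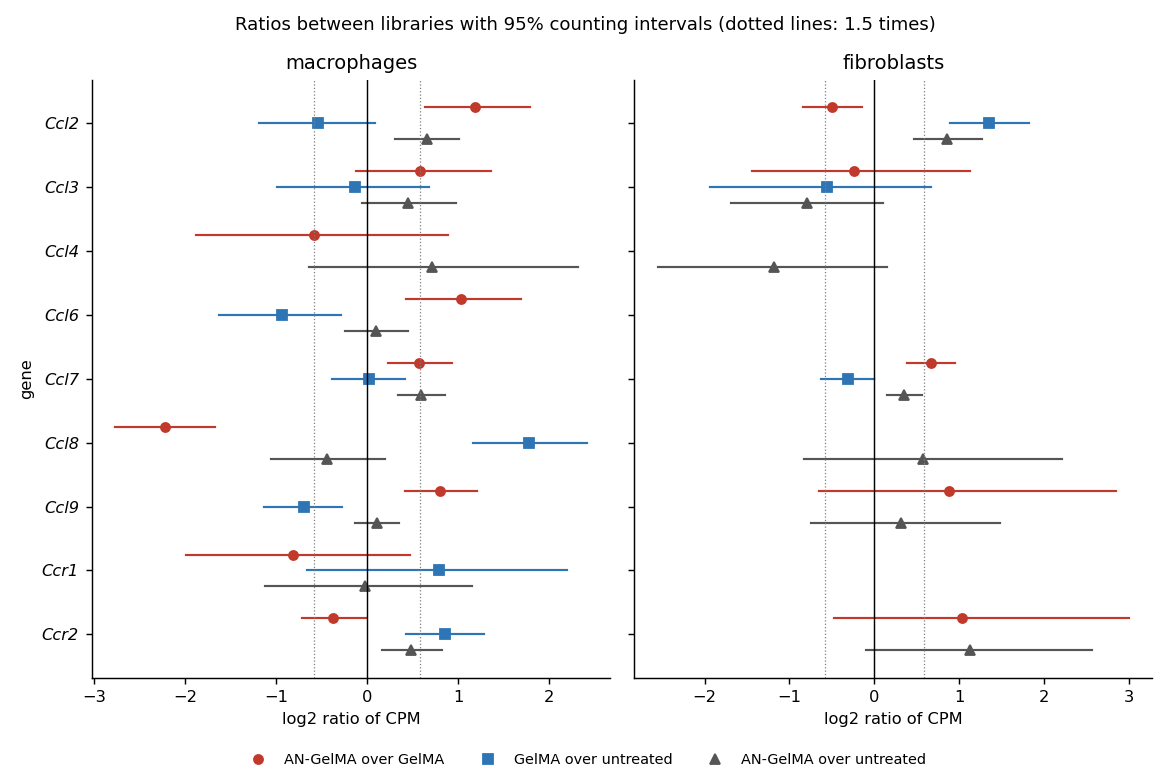
Log2 ratios of CPM (x axis) of the 9 genes (y axis) by comparison (AN-GelMA over GelMA, then GelMA over untreated, then AN-GelMA over untreated), in macrophages (left) and fibroblasts (right), where at least 20 UMIs were read. Lines are 95% counting intervals and dotted lines mark 1.5 times; Ccl8 in macrophages reached -2.22 for AN-GelMA over GelMA.

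Other genes of the pathway were read from 6 lists. Their counts stand beside those over all genes: in macrophages 11.9% higher and 19.8% lower for AN-GelMA over GelMA, 18.1% and 12.2% for GelMA over untreated and 7.45% and 8.63% for AN-GelMA over untreated, and in fibroblasts 10.2% and 17.8%, 16.0% and 10.1%, and 4.98% and 6.37%. The medians over all genes were -0.10, 0.08 and -0.01 in both classes, and all median log2 ratios of the lists are given in that order. Ccl12, another mouse ligand of Ccr2, followed Ccl8 in macrophages, at 79.0 CPM in AN-GelMA (121 UMIs), 170.7 in GelMA (58 UMIs) and 76.4 in untreated (55 UMIs). Its log2 ratio was -1.11 for AN-GelMA over GelMA (-1.57 to -0.63) and 1.16 for GelMA over untreated (0.60 to 1.72). Of 13 other CC ligands 2 could be read in macrophages in each comparison, with 0 higher and 1 lower, 1 higher and 0 lower, and 0 and 0 in the same order (medians -0.62, 0.67 and 0.06). In fibroblasts 3 could be read, with 1 higher and 1 lower, 1 and 1, and 0 and 0 (medians -0.42, 0.57 and -0.29). Ccl19, a ligand of Ccr7 that draws dendritic cells and T cells, stood there at 38.2 CPM in AN-GelMA, 169 in GelMA and 46.8 in untreated, with -2.14 for AN-GelMA over GelMA (-2.55 to -1.74). Of 12 other CC receptors and decoy receptors, 2, 1 and 2 could be read in fibroblasts in the same order, with 0 higher in each and 1, 0 and 0 lower (medians -0.16, 0.05 and 0.13).

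Genes of recruited monocytes were higher in AN-GelMA than in GelMA macrophages in 7 of 10 read, with 1 lower and a median log2 ratio of 0.87. Against untreated, GelMA had 0 of 7 higher and 4 lower (median -0.75) and AN-GelMA 5 of 10 higher and 0 lower (median 0.57). Thbs1, thrombospondin 1 of the wound matrix, stood at 1111 CPM in AN-GelMA, 323.7 in GelMA and 648.9 in untreated, and Fn1, fibronectin, at 1314, 538.6 and 1594. The Mmp12 and Spp1 cluster was 599 of 1482 macrophages in AN-GelMA, 66 of 380 in GelMA and 334 of 628 in untreated. The part of that share was not tested. In the Mmp12 and Spp1, Cd163 and Mrc1, and Ccr2 clusters the list medians for AN-GelMA over GelMA were 0.38, 1.27 and 1.18. Over all genes there the medians were -0.02, -0.04 and 0.03. For GelMA over untreated the list medians were -0.09, -0.55 and -0.38, against -0.01, 0.01 and -0.03 over all genes. Each rests on 4 to 7 genes. In fibroblasts, which make several of these genes themselves, 5 of 7 were higher and 0 lower in AN-GelMA over GelMA, 0 of 6 higher and 4 lower in GelMA over untreated, and 1 of 7 higher and 0 lower in AN-GelMA over untreated (medians 0.96, -0.71 and 0.23).

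Inducers of the chemokines through NF-kB and interferon were mixed in macrophages, with 4 higher and 1 lower of 11 in AN-GelMA over GelMA, 2 and 4 in GelMA over untreated, and 1 and 1 in AN-GelMA over untreated (medians 0.14, 0.29 and 0.05). Il1b, a cytokine that induces Ccl2, stood at 649 CPM in AN-GelMA, 244.3 in GelMA and 408.5 in untreated, a log2 ratio of 1.41 for AN-GelMA over GelMA (1.09 to 1.75). Tnf, tumour necrosis factor, stood at 39.8, 73.6 and 41.7 CPM. In fibroblasts 1 of 10 was higher, 2 were higher and 1 was higher in the 3 comparisons, with 0 lower (medians -0.00, 0.23 and 0.18). Among them Il6, an inflammatory cytokine, stood at 88.0 CPM in AN-GelMA, 91.8 in GelMA and 46.0 in untreated. Of 20 genes that carry the signal of CC receptors, 2 were higher and 1 lower, 2 and 3, and 0 and 0 in macrophages in the same order (medians -0.02, 0.05 and -0.06), and 6 and 1 of 18, 1 and 4 of 16, and 0 and 1 of 18 in fibroblasts (medians 0.11, -0.16 and -0.07). Itgb2, the integrin chain of leukocyte adhesion, stood in macrophages at 1024, 512.1 and 1252 CPM. It is among the leading genes of the Mmp12 and Spp1 cluster, whose share of macrophages differed between the libraries. The part of that share was not tested. Of 7 genes of atypical scavenging and heparan binding, 3, 2 and 2 could be read in macrophages, with 0 higher in each and 2, 0 and 1 lower (medians -0.67, -0.02 and -0.32). In fibroblasts 6, 5 and 6 were read, with 1, 0 and 1 higher and 1, 1 and 0 lower (medians -0.05, -0.08 and -0.05). Tnfaip6, a hyaluronan binder that also binds chemokines, stood in fibroblasts at 823.3 CPM in AN-GelMA, 128.2 in GelMA and 432.7 in untreated, a log2 ratio of 2.68 for AN-GelMA over GelMA.

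The genes whose levels ran most like the members were found by Pearson's r over 27 sums, 9 classes in each of the 3 libraries, among 11446 genes. These sums share libraries, so r is a description only, and they leave out neutrophils, the class with the highest Ccl3 and Ccl4, since untreated had 39. Ccl2 ran most like Emilin2 (r = 0.93), Ccl7 like C4b (0.94) and Ccl8 like C6 (0.94). Ccl6 ran most like Cd300lb (0.95), Ccl9 like Mefv (0.97), Ccr2 like Ifi209 (0.98) and Ccr1 like Themis2 (0.96). Ccl3 ran most like Spp1 (0.92), and Ccl4 had the weakest nearest gene, Cxcl10 (0.74).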

How the data were processed

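Single-cell libraries of AN-GelMA, GelMA and untreated wounds were analysed, 1 per group. The authors deposited UMI counts per gene and barcode, written by Cell Ranger, version 10.0.0 per the file headers; the genome build was GRCm39 (mm39) per the submitters' processing notes. From these counts, barcodes needed at least 400 UMIs, at least 250 genes and no more than 10% mitochondrial UMIs. Scrublet (scanpy 1.11.5) called 0 doublets, which is too few to have worked, so the 5% of cells with the highest doublet score in each library were removed instead. The filter removed 36, 147 and 34 barcodes and the doublet step 518, 615 and 318 in AN-GelMA, GelMA and untreated.

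Cells were scaled to 10000 counts, and 2000 variable genes, without the CC chemokine and receptor genes, gave 30 components and Leiden clusters (resolution 1, 15 neighbours). Clusters were named by marker score (at least 1.8, and 0.5 above the next class). Larger clusters that scored at least 1.8 but stayed unnamed were divided once more at resolution 0.5. This naming rule was set after the cluster tables were seen, and 7 clusters stayed unnamed. Raw counts were summed by class and library and given as CPM, computed here. Intervals are exact (Poisson for levels, Clopper-Pearson for shares, conditional binomial for ratios, 95%), and UMIs of 1 library are not replicates. A count of 0 was set to 3 UMIs for a bound. Genes of the lists were named from the 4 of each list, class and comparison with the largest absolute log2 ratio among those with at least 50 UMIs, and genes alike by the 3 highest r on log2(CPM + 10). The counting scripts were tested on simulated Poisson counts, which checks their arithmetic and cannot cover UMIs clumped in few cells. The members and lists were chosen with earlier results of these data known. With 1 library a group no p-value was computed.

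Promoter windows came from RefSeq on GRCm38.p6, a build that differs from that of the counts, and 6 of 9 members had a window; Ccl2, Ccl4 and Ccl7 are only named. 1 gene of the receptor list is not reported here.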

Additional observations from a re-analysis of the deposited data

How the results depend on the processing

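No paired analysis was possible because there was 1 library in each group. Of 41 ratios of the 9 genes read in macrophages or fibroblasts, 22 were past 1.5 times. Over 15 alternative settings, 12 planned and 3 added after seeing the data, these gave 261 values, of which 259 kept the sign and 225 also stayed past 1.5 times. Reversed were Ccr2 in macrophages, GelMA over untreated, at -0.21 in the Cd163 and Mrc1 cluster alone, and Ccl7 in fibroblasts, AN-GelMA over GelMA, at -0.19 with the 3 clusters weighted equally; the cause was not tested.

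The number of genes past 1.5 times changed as follows. In macrophages, AN-GelMA over GelMA gave 3 in place of 6 in the Mmp12 and Spp1 cluster alone. GelMA over untreated gave 3 in place of 5 with cells of at least 1000 UMIs, at Leiden resolution 2 and with at least 100 UMIs per gene, 2 in the Cd163 and Mrc1 cluster alone and 1 in the Ccr2 cluster alone. AN-GelMA over untreated gave 1 in place of 3 with doublets kept and in the Ccr2 cluster alone. In fibroblasts, AN-GelMA over GelMA gave 1 in place of 3 after thinning and with at least 100 UMIs, and 5 with no minimum. GelMA over untreated gave 2 in place of 1 with doublets kept, cells weighted equally, median-ratio scaling, clusters weighted equally or the top cell left out, and 5 with no minimum. AN-GelMA over untreated gave 1 in place of 4 with cells of at least 1000 UMIs and with at least 100 UMIs per gene, and 0 after thinning, with no test behind any of these counts.

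Calls that held under all their alternatives included Ccl2 (0.71 to 1.61), Ccl6 (0.68 to 1.51) and Ccl8 (-2.34 to -1.52) in macrophages, AN-GelMA over GelMA, and Ccl2 in fibroblasts, GelMA over untreated (0.79 to 2.43). Ccl4 in macrophages held in 3 of 8 for AN-GelMA over GelMA and in 7 of 9 for AN-GelMA over untreated. GelMA had the fewest macrophages and 1 UMI there was worth 2.94 CPM, against 0.653 in AN-GelMA and 1.39 in untreated, so its values were the least precise.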
